A study of Rattus norvegicus with 6 samples.

Results

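Most of the genes described here encode transcription factors, many of which pattern the skeleton or set cell fate within it. Among the exceptions are the antisense RNA Hoxa11-as and the corepressor gene Runx1t1, and the locus Hoxa3l1 is not shown to encode a factor. The genes were taken as every probe set whose platform annotation gives exactly 1 gene symbol of the Hox, Dlx, Msx, Irx, sine oculis, Prrx, Sox, Runx, Tbx, Fox, Twist, Lhx, Pitx, Meis or Pbx families, with only Runx1, Runx3 and Runx1t1 matching among Runx symbols and with Irx5 left out. This gave 162 probe sets standing for 107 genes, of 14217 genes named by 1 symbol. The tested cultures were UMR106-01 cells, a bone tumour line of the rat with osteoblast features, that received beta-glycerol phosphate (6.5 mM, a phosphate source for mineral) together with AEBSF (400 µM), an irreversible serine protease inhibitor. The cultures they were set against received the same mineralizing medium without AEBSF. Both groups held 3 cultures, seeded at 100000 cells per cm2 with 10% fetal bovine serum, re-fed with these media 64 h after plating and harvested at 76 h, after 12 h of treatment. All cultures came from 1 tumour cell line, and nothing in the labels says whether those of a group were set up on separate days, so the p-values measure the spread between these cultures, which may be technical.

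Each culture was read on 1 array, and each value is a MAS5 signal, a summary of the probes of a probe set on a linear scale. A probe set was tested when its mean log2 signal over all 6 arrays exceeded the 40th percentile, a signal of 67.2, and the brightest probe set of a gene, on average over the arrays, stands for it. A gene was called when its adjusted p in limma, over all 18625 probe sets tested, was under 0.05. Over all genes 1608 of 9864 (16.3%) were called, 7.09% higher and 9.22% lower with AEBSF. The label of the cells was checked on osteoblast markers, of which 7 of 8 lay above the filter and Bglap, osteocalcin, did not. The summed signal of these 8 markers was 24381 to 25493 with AEBSF, against 26935 to 28489 in mineralizing cultures, without overlap. Of these markers Col1a1, Col1a2 and Phex were called lower, while Ibsp, Alpl, Spp1 and Sparc did not pass. Ibsp, the brightest, averaged 17101 with AEBSF, against 16520 in mineralizing cultures. Of 41 measured markers of 7 other cell types, 9 lay above the filter. The summed signals of these types overlapped between the groups except for 6 chondrocyte and 6 macrophage markers. The chondrocyte sums were 467 to 514 with AEBSF, against 519 to 635 in mineralizing cultures. Of these markers only Acan and Hapln1 lay above the filter, and Hapln1 averaged 232.8 with AEBSF, against 324.8. Below it lay Col2a1, Comp and Matn1, the last 2 higher on average with AEBSF, and Col9a1, at 2.55 to 22.5 over both groups. The macrophage sums were 225 to 237 with AEBSF, against 261 to 349. Of these markers only Csf1r lay above the filter, and Cd14 and Ptprc were higher on average with AEBSF. The part of these cell types in the results below was not tested. The 3′ to 5′ signal ratio of the GAPDH control was 1.05 to 1.08 with AEBSF, against 1.02 to 1.06 in mineralizing cultures. For the beta-actin control it was 1.46 to 1.61, against 1.52 to 1.54, and for hexokinase 1.53 to 2.04, against 1.79 to 2.19.

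Homeobox, Sox, Runx, T-box, forkhead and Twist factors bind DNA through domains that are shared within each family, and many act in the skeleton in a set order. Hox genes give limb and trunk segments their identity, Sox factors of the D and E groups drive cartilage, and Dlx, Msx and Runx factors act in osteoblasts and hypertrophic chondrocytes, with Twist proteins as restraints on Runx. Forkhead factors of the O group respond to insulin and oxidative stress, and Foxm1 serves the late cell cycle.

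With AEBSF, 9 of the 63 tested genes were lower and 0 were higher in limma at an adjusted p under 0.05 (14.3% lower, against 9.22% of all tested genes). The 9 were Sox6, Sox18, Sox2, Sox4, Runx3, Meis1, Foxn3, Foxm1 and a Hox-named locus, Hoxa3l1. The largest of these changes was that of Sox6, 1.91-fold, and the smallest that of Sox4, 1.21-fold. At an unadjusted p under 0.05, 15 were lower and 4 higher in limma, and after quantile normalization 1, Msx1, was called higher. The share of all tested genes at an unadjusted p under 0.05 was not counted, here or for the families and lists below. Counts at that cut therefore have no background beside them and are not read as a result about the members. The median log2 fold change was -0.09 over the 63 genes and 0.00 over all 9864. Among probe sets, 18 of 90 tested were lower and 0 higher in limma (5 higher at an unadjusted p under 0.05). Of all probe sets tested 7.41% were lower and 5.99% higher. The 18 belong to 10 genes, with 4 from Sox4, 3 from Sox2 and 2 from Sox6. They repeat readings of the same genes and add no separate excess to the gene count. In 14 of the 63 genes all 3 AEBSF cultures lay below all 3 mineralizing ones, and in 4 above, against 19.1% and 17% of all tested genes. Without mineralizing culture 1 or 2 the count of lower probe sets was 10 and 11, and with a constant variance prior 5 genes and 8 probe sets were lower.

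**Figure D1:**
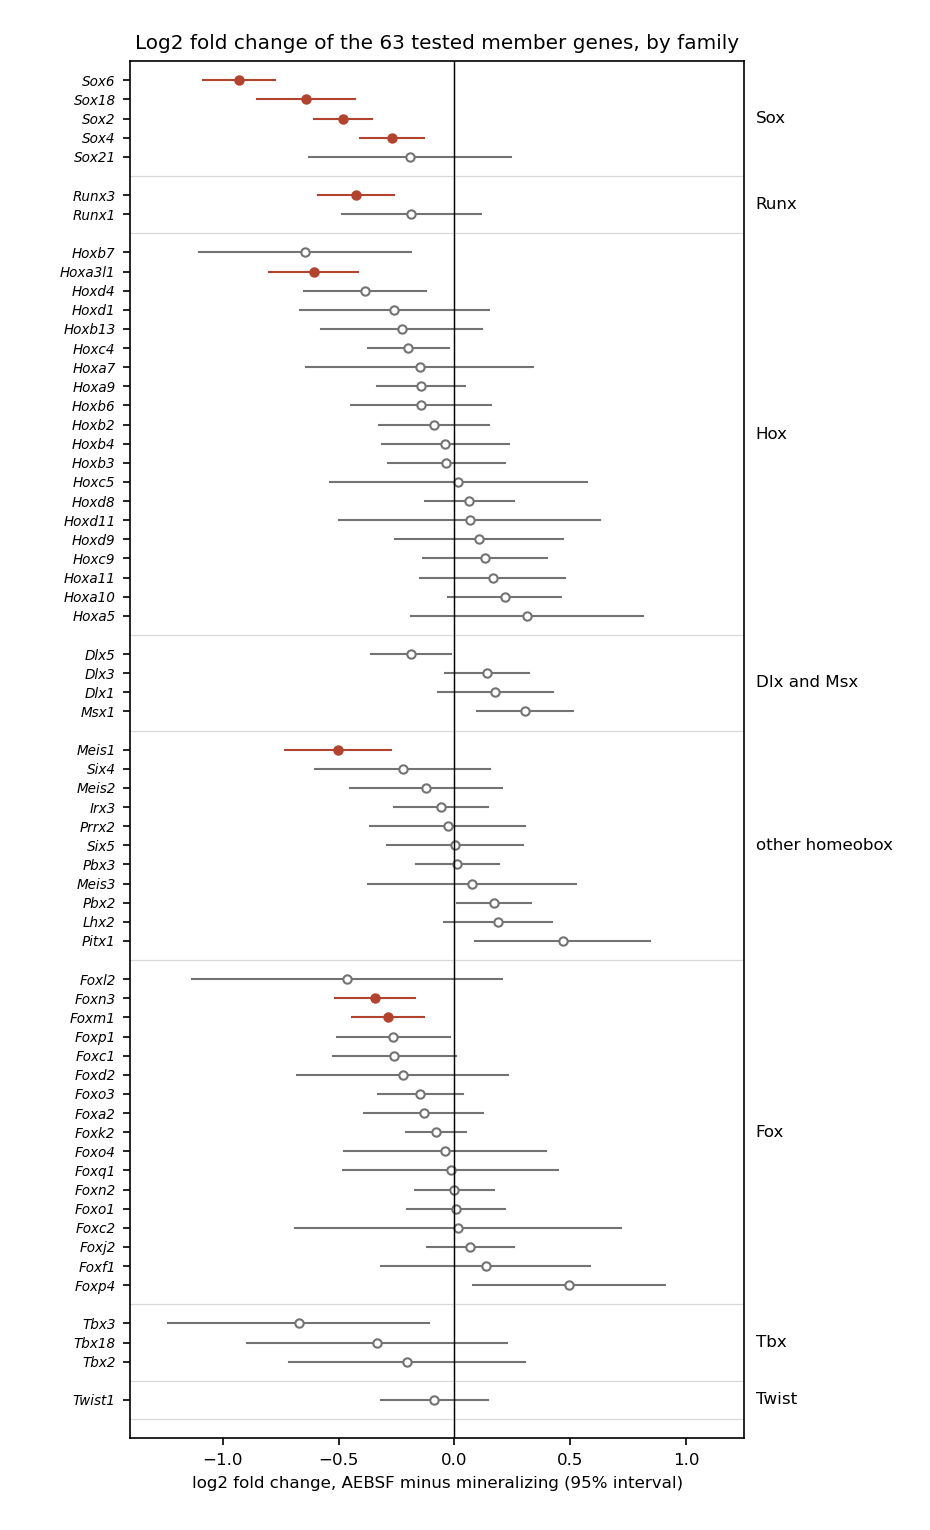
Log2 fold change (AEBSF minus mineralizing, horizontal axis) of the 63 tested genes, grouped by family, with 95% intervals from limma; filled red points are genes past an adjusted p of 0.05 and open grey points are not. All 9 filled points lie left of 0, 4 of them among the 5 tested Sox genes.

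The signal scale of each array is fixed by the authors' scaling, so a direction is relative to the other genes. Scaling the arrays to 18 hybridization control probe sets moved the median of all tested probe sets to -0.14 (log2), changed the split of all called probe sets to 119 higher and 2457 lower, against 1115 and 1380 as deposited, and put 15 member genes lower and 0 higher, with a member median of -0.23. Fewer copies per cell and fewer cells expressing a gene cannot be told apart in these bulk samples.

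Promoters are shown for 3 of the lower genes, picked to show the CCAAT matches after these were known; Meis1, Hoxa3l1 and Foxn3 were lower too and have RefSeq starts that hold none. Runx3 has a distal and a proximal start. Each runs from 250 bases before to 50 bases after the start (RefSeq, build GRCr8). Capitals mark matches on either strand. The patterns were the CCAAT box, the CCACG part of the ER stress element that ATF6 contacts, the SOX core written AACAAT and the RUNX core written TGTGGT; the SOX core is in none of the 4 windows.
Sox6, chr1:179665322-179665621, minus strand: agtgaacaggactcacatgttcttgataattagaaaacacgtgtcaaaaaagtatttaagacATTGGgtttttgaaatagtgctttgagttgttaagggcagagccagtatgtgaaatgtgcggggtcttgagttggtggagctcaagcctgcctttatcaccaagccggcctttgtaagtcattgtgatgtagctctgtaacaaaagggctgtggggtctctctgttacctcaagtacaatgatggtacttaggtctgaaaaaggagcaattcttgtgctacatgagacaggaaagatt
Sox2, chr2:119464881-119465180, plus strand: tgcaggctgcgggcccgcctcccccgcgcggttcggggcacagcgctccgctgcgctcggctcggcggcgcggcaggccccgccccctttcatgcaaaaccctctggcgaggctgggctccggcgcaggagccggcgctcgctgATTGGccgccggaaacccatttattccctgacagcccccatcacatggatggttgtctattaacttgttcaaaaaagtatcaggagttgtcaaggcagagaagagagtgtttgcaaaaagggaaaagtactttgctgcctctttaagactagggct
Runx3 distal start, chr5:152644020-152644319, plus strand: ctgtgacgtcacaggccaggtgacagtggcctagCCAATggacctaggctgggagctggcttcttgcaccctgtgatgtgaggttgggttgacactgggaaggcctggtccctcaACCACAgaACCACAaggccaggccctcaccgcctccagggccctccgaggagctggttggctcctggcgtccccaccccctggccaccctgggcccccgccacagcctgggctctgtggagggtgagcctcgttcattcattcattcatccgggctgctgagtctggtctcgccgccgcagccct
Runx3 proximal start, chr5:152677396-152677695, plus strand: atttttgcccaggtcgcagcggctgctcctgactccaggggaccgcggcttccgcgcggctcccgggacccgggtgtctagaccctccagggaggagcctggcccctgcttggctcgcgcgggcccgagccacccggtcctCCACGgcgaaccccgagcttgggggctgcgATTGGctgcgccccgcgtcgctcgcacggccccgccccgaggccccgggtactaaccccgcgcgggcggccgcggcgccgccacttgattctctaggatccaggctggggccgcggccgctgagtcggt

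Of the 10 genes with a called probe set, 7 had RefSeq promoters, 11 in all; Sox4, Sox18 and Foxm1 are named only. CCAAT stood in 4 of the 11 windows, those printed, and in 37.5% of 33469 promoters of the same length. The distal Runx3 window held TGTGGT 2 times, read on the minus strand and starting 135 and 127 bases before the start, and a Hoxa3l1 window held it as well, so that 2 of the 11 windows had a match, against 17.3% of all promoters. CCACG stood in 2 of the 11, the proximal Runx3 window and 1 of 4 Hoxa3l1 windows, against 31.6% of all promoters. The whole ER stress element, in which the CCAAT box stands 9 bases before its CCACG part, matched in 0 of the 11 windows and in 0.0657% of all promoters, and TCACNCCAC, a sterol element pattern, in 0 of the 11 and 1.12%. AACAAT was found in 1 of the 11 windows, that of a Hoxa3l1 start, against 11.7% of all promoters. GGGCGG, a GC box, stood in 6 of the 11, against 33.1%, and TATAAA in 1, against 14.2%. These matches describe letters and say nothing of binding.

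The Sox genes, which encode HMG-box factors, held the most called members of any family here. Of 14 measured, 5 were tested, 4 of them were lower with AEBSF and 0 higher at either an adjusted or an unadjusted limma p under 0.05 (of all tested genes 9.22% were called lower and 7.09% higher). Sox6, a D-group factor that works beside Sox9 in cartilage, had signals of 796, 762 and 882 in AEBSF cultures 1, 2 and 3, against 1576, 1500 and 1569.6 in the mineralizing cultures. No AEBSF culture reached the lowest mineralizing one, and the means were 813 ± 61.9 with AEBSF and 1548 ± 42.1 in mineralizing cultures (SD, n = 3 each). The log2 fold change was -0.93 (SE 0.07, limma adjusted p = 2.57e-05). A second Sox6 probe set gave 681, 746 and 719.7 with AEBSF, against 967, 938 and 835 in mineralizing cultures, a smaller fall (log2 fold change -0.35, SE 0.08, limma adjusted p = 0.0151). Within an array, the log2 ratio of the first to the second was 0.03 to 0.29 with AEBSF, against 0.68 to 0.91 in mineralizing cultures. The 2 Sox6 probe sets thus changed by unequal amounts.

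Sox2, a stem cell factor that in mice also sustains osteoblast progenitors, was lower in all 3 of its tested probe sets. The brightest read 1878, 1761 and 1891 in the AEBSF cultures, against 2637, 2618 and 2474 in the mineralizing cultures, with no overlap (log2 fold change -0.48, SE 0.06, limma adjusted p = 0.000492). Its other 2 tested probe sets gave log2 fold changes of -0.61 and -0.49 (limma adjusted p = 0.00274 and 0.0118). The remaining Sox2 probe set, with a mean signal of 3.28 over both groups, was not tested.

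Sox18, a factor best known from vessel and lymphatic development, had signals of 345, 355 and 306 with AEBSF, against 529, 509 and 529 in mineralizing cultures. The groups did not overlap (log2 fold change -0.64, SE 0.10, limma adjusted p = 0.00176). Endothelial markers fixed for comparison had 0 of 5 above the filter.

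Sox4, a C-group factor that mice need for normal bone formation, was measured by 7 probe sets, of which 6 were tested and 4 were lower. The one that represents the gene had 4515, 4493 and 4746 with AEBSF, against 5132, 5450.3 and 6047 in mineralizing cultures (log2 fold change -0.27, SE 0.06, limma adjusted p = 0.0173). No culture of one group lay within the other's range. Leaving out mineralizing culture 2, mineralizing culture 3 or AEBSF culture 1 gave limma adjusted p of 0.0528, 0.0536 and 0.0538, and a constant variance prior 0.107, none of which passes. Another probe set fell further, with 987, 1029 and 935 with AEBSF, against 1425, 1351 and 1338 (log2 fold change -0.48, SE 0.07, limma adjusted p = 0.00101). Both tested probe sets that did not pass were dim, with means of 66.6 and 108.5 with AEBSF, against 73.1 and 107.5 in mineralizing cultures.

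Sox21, the remaining tested member, had 95.7, 113 and 148 with AEBSF, against 127, 146 and 129, overlapping (log2 fold change -0.19, 95% interval -0.63 to 0.24). The other 9 Sox genes lay below the filter with means of 4.53 to 57.5, Sox10, Sox11 and Sox17 among them. Sox9 and Sox5 were not analysed here.

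**Figure D2:**
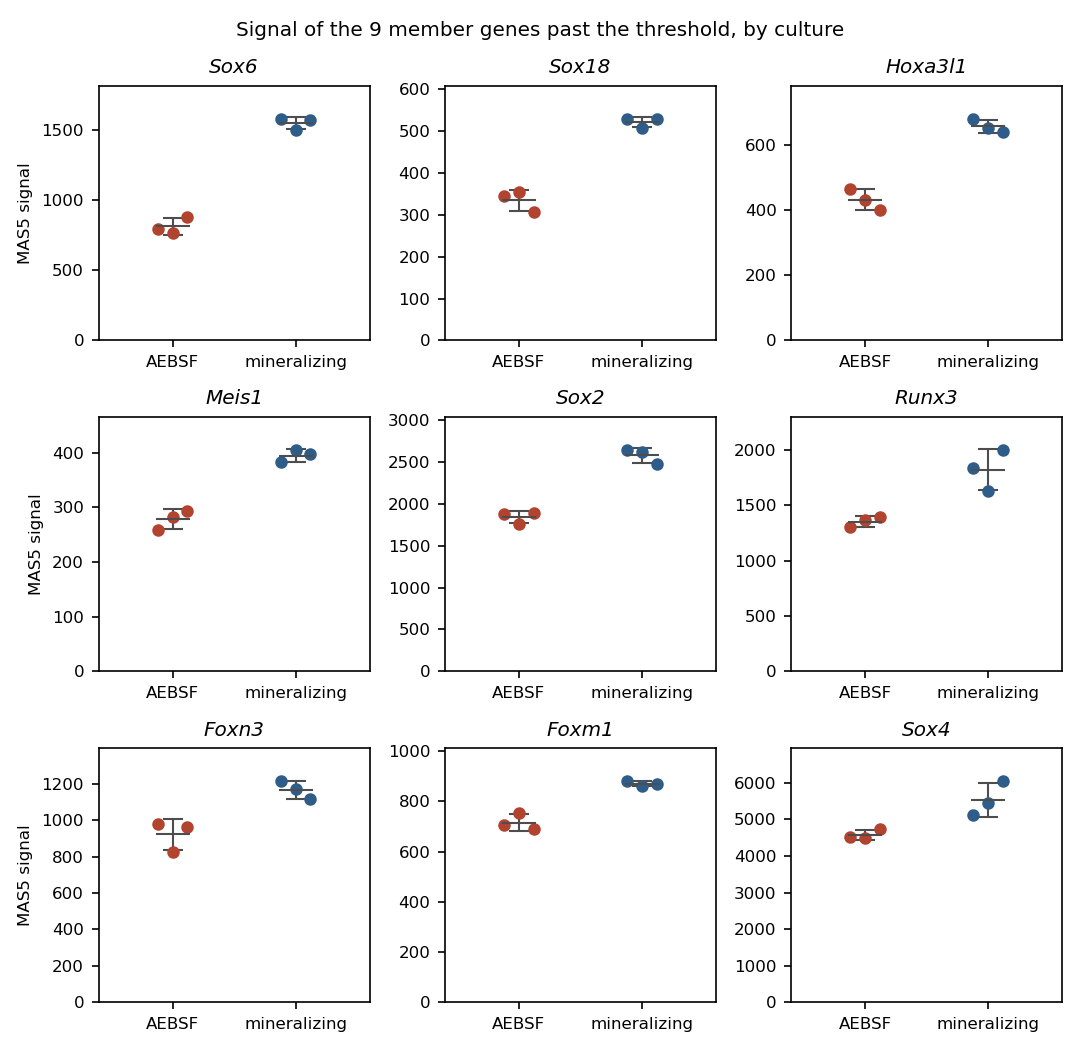
MAS5 signal (vertical axis, linear from 0) in each of the 3 AEBSF and 3 mineralizing cultures for the 9 called genes, each by its brightest probe set; points are cultures, bars the mean ± SD. In every panel the highest AEBSF culture lies below the lowest mineralizing culture.

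Of the Runx factors, which bind DNA with the partner Cbfb, Runx3 was lower. Runx3, which acts with Runx2 in chondrocyte maturation in mice, read 1301, 1368 and 1390.2 with AEBSF, against 1839, 1627 and 1998 in mineralizing cultures. The AEBSF cultures lay close together and all below the mineralizing ones, which were more spread (log2 fold change -0.42, SE 0.08, limma adjusted p = 0.00451). A second, dim probe set did not pass (103 ± 12.1 with AEBSF and 96.2 ± 19.6 in mineralizing cultures, SD, n = 3 each), and averaging both lost the call (limma adjusted p = 0.296), as did a constant variance prior (0.0557). Runx1 had 307, 424 and 440.0 with AEBSF, against 453, 469 and 397, and did not pass (log2 fold change -0.19, 95% interval -0.49 to 0.11). Runx1t1, a corepressor and RUNX1 fusion partner in leukaemia that shares only its name with the family, lay below the filter in all 4 of its probe sets. Cbfb itself had 4556 ± 98.6 with AEBSF and 4496 ± 138 in mineralizing cultures (SD, n = 3 each; limma adjusted p = 0.842).

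Hox transcripts of all 4 clusters were above the filter, and most did not pass the test. Of 24 Hox-named genes 20 were tested, 1 was lower (5.00%, against 9.22% of all tested genes) and 0 were higher in limma, with 4 lower and 0 higher at an unadjusted p under 0.05. Tested were Hoxa5, Hoxa7, Hoxa9, Hoxa10 and Hoxa11, Hoxb2, Hoxb3, Hoxb4, Hoxb6, Hoxb7 and Hoxb13, Hoxc4, Hoxc5 and Hoxc9, and Hoxd1, Hoxd4, Hoxd8, Hoxd9 and Hoxd11, besides Hoxa3l1. Below the filter lay Hoxc8, Hoxd3, Hoxd10 and the antisense RNA Hoxa11-as.

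Hoxa3l1, the called member, had 465, 430.4 and 399 with AEBSF, against 679, 651 and 641 in mineralizing cultures, without overlap (log2 fold change -0.61, SE 0.09, limma adjusted p = 0.00138). In RefSeq its span overlaps that of Hoxa3, which lies on the opposite strand and was not analysed here. Which of the transcripts at this locus the probe set reads was not tested.

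Hoxb7 and Hoxd4 came close to the threshold. Hoxb7 had 325, 278 and 277 with AEBSF, against 697, 409 and 336, where the groups do not overlap and mineralizing culture 1 stands far above the others (log2 fold change -0.65, SE 0.21, limma adjusted p = 0.0627). It passed with the hybridization scaling, with the replicate number as a block and without mineralizing culture 3 (limma adjusted p = 0.00557, 0.0268 and 0.022). Without mineralizing culture 1 its log2 fold change was -0.34 (limma adjusted p = 0.177), and Hoxb7 did not pass there. Hoxd4 had 251, 271 and 228 with AEBSF, against 346, 334 and 299.7 (log2 fold change -0.39, SE 0.12, limma adjusted p = 0.0543). Hoxd4 passed under 4 alternatives, with limma adjusted p of 0.023 to 0.0498. Among these, the filter at the 60th percentile and averaged probe sets left the log2 fold change of its single probe set at -0.386. Hoxa10, a posterior gene, had 921, 911 and 902 with AEBSF, against 776, 953 and 653, with a log2 fold change of 0.22 (95% interval -0.03 to 0.46). Hoxc4 gave opposite signs in 2 probe sets (-0.20 and 0.46 on the log2 scale), and neither passed (limma adjusted p = 0.125 and 0.0967).

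The TALE homeodomain proteins Meis and Pbx bind DNA together with Hox factors. Meis1 had 259, 283 and 294 with AEBSF, against 382, 405 and 397 in mineralizing cultures. Every mineralizing culture exceeded every AEBSF culture (log2 fold change -0.50, SE 0.11, limma adjusted p = 0.0101). This call held under all 17 alternatives, with limma adjusted p of 0.00225 to 0.0463, though averaging probe sets left the signals of its single probe set unchanged. Its relatives Meis2 and Meis3 did not pass (log2 fold change -0.12 and 0.07, limma adjusted p = 0.64 and 0.851). Pbx3 averaged 2400.5 ± 82.6 with AEBSF and 2392 ± 308 in mineralizing cultures (SD, n = 3 each; log2 fold change 0.01, 95% interval -0.17 to 0.19). Pbx2 had 887, 917 and 1020.4 with AEBSF, all above the 831, 832 and 841 of the mineralizing cultures, but did not pass (log2 fold change 0.17, limma adjusted p = 0.149).

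Among the other homeobox genes, 0 of the Irx3, Lhx2, Pitx1, Prrx2, Six4 and Six5 probe sets that represent a gene passed in limma (Pitx1 alone at an unadjusted p under 0.05). So few genes cannot be set apart from the 16.3% of all tested genes called. With the Meis and Pbx genes included, 1 of 11 tested was lower (9.09%, against 9.22% of all tested genes) and 0 were higher. The hindlimb factor Pitx1 had 295, 387 and 266 with AEBSF, against 195, 209 and 283 (log2 fold change 0.47, SE 0.17, limma adjusted p = 0.099), overlapping, and passed without mineralizing culture 3 (limma adjusted p = 0.0463). Prrx2 had 317 ± 56.4 with AEBSF and 323 ± 44.8 in mineralizing cultures (SD, n = 3 each; limma adjusted p = 0.923). Prrx1, a limb mesenchyme factor, lay below the filter in both of its probe sets, as did Irx1, Irx2 and Irx4, while Irx3 was tested and had a log2 fold change of -0.06 (95% interval -0.26 to 0.14). Six4, of the sine oculis group, had 125, 157 and 164 with AEBSF, against 152, 198 and 172 (log2 fold change -0.22, limma adjusted p = 0.431).

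The Dlx and Msx genes, homeobox factors of osteoblasts that respond to bone morphogenetic proteins, gave 0 called members of 4 tested in limma (1 higher and 1 lower at an unadjusted p under 0.05). With 16.3% of all tested genes called, a count of 0 among 4 does not set them apart. Dlx5, which switches on osteoblast genes, had 1395, 1532 and 1264 with AEBSF, against 1688, 1479 and 1598 (log2 fold change -0.19, 95% interval -0.36 to -0.01, limma adjusted p = 0.143). AEBSF culture 2 exceeded mineralizing culture 2, so the groups overlap. Dlx5 passed as lower with the hybridization scaling, which shifted most genes downward (log2 fold change -0.33, limma adjusted p = 0.0469). Dlx3, which also acts in osteoblasts, had 3154, 3308 and 2799.8 with AEBSF, against 3149.8, 2570.5 and 2693 (log2 fold change 0.14, 95% interval -0.04 to 0.32). Dlx1 overlapped between groups as well (log2 fold change 0.18, limma adjusted p = 0.337). Msx1 had 524, 475 and 454 with AEBSF, all above 400.1, 394 and 381 in mineralizing cultures (log2 fold change 0.30, SE 0.09, limma adjusted p = 0.0529). Msx1 was called higher under 4 alternatives: quantile normalization (limma adjusted p = 0.0448), a filter at the 60th percentile (0.0446), averaged probe sets (0.0404) and the fit that lacks AEBSF culture 3 (0.0499). With a single probe set, Msx1 kept its log2 fold change of 0.304 under the filter and the averaging. Only the other features in the fit differed there. Msx2 lay below the filter in all 3 of its probe sets, with group means of 12.5 to 35.5 with AEBSF, against 12.9 to 20.9.

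Forkhead genes gave 2 lower and 0 higher of 17 tested in limma (11.8% lower, against 9.22% of all tested genes; 3 lower and 1 higher at an unadjusted p under 0.05), and 13 of 30 lay below the filter. Foxn3, a repressor that takes part in the DNA damage checkpoint, had 977, 824 and 964 with AEBSF, against 1213, 1168 and 1114 (log2 fold change -0.34, SE 0.08, limma adjusted p = 0.0165). A second probe set passed as well (-0.29, limma adjusted p = 0.046) and another did not (-0.11, limma adjusted p = 0.573). Foxn3 did not pass when mineralizing culture 1 or 2 was left out (limma adjusted p = 0.0747 and 0.057), nor under a constant variance prior (0.0819).

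Foxm1, which activates genes of mitosis, had 704, 752 and 688 with AEBSF, against 879.8, 861 and 869.9 in mineralizing cultures. The groups did not overlap (log2 fold change -0.29, SE 0.07, limma adjusted p = 0.0225). Of the 9 calls this one was lost under the most alternatives. Leaving out mineralizing culture 1, 2 or 3 gave limma adjusted p of 0.0857, 0.0704 and 0.0665, and leaving out AEBSF culture 1 gave 0.057. A constant prior gave 0.0642, the replicate number as a block 0.0507 and averaging both Foxm1 probe sets 0.86. In the second, dim Foxm1 probe set the log2 fold change was 0.21 (SE 0.22).

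Foxp1 was not called by its brightest probe set, which had 1464, 1367 and 1616 with AEBSF, against 2023, 1926 and 1438, with mineralizing culture 3 inside the AEBSF range (log2 fold change -0.26, limma adjusted p = 0.143). Without mineralizing culture 3 it passed (limma adjusted p = 0.0138), as it did with the hybridization scaling (0.0149). Another of its 5 probe sets had 1120.4, 1155 and 1322 with AEBSF, against 1663, 1440 and 1597 (log2 fold change -0.39, SE 0.08, limma adjusted p = 0.0092). Of the remaining Foxp1 probe sets 1 more was lower (-0.33, limma adjusted p = 0.0174). The FoxO factors did not pass: Foxo1 had 583 ± 43.0 with AEBSF and 581 ± 58.5 in mineralizing cultures, and Foxo3 1374 ± 65.2 and 1529 ± 189 (SD, n = 3 each; log2 fold change 0.01 and -0.15, limma adjusted p = 0.967 and 0.278). Foxc1, a factor of skull and limb mesenchyme, had 289, 265 and 241 with AEBSF, against 296, 345 and 310.4 (log2 fold change -0.26, 95% interval -0.52 to 0.01). The forkhead genes with the widest differences, Foxp4 (0.50 on the log2 scale, SE 0.19) and Foxl2 (-0.46, SE 0.31), overlapped between groups and did not pass (limma adjusted p = 0.109 and 0.356). Foxc2, at 157, 84.5 and 81.4 with AEBSF, against 145, 110.4 and 65.3, spread widely within both groups.

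**Figure D3:**
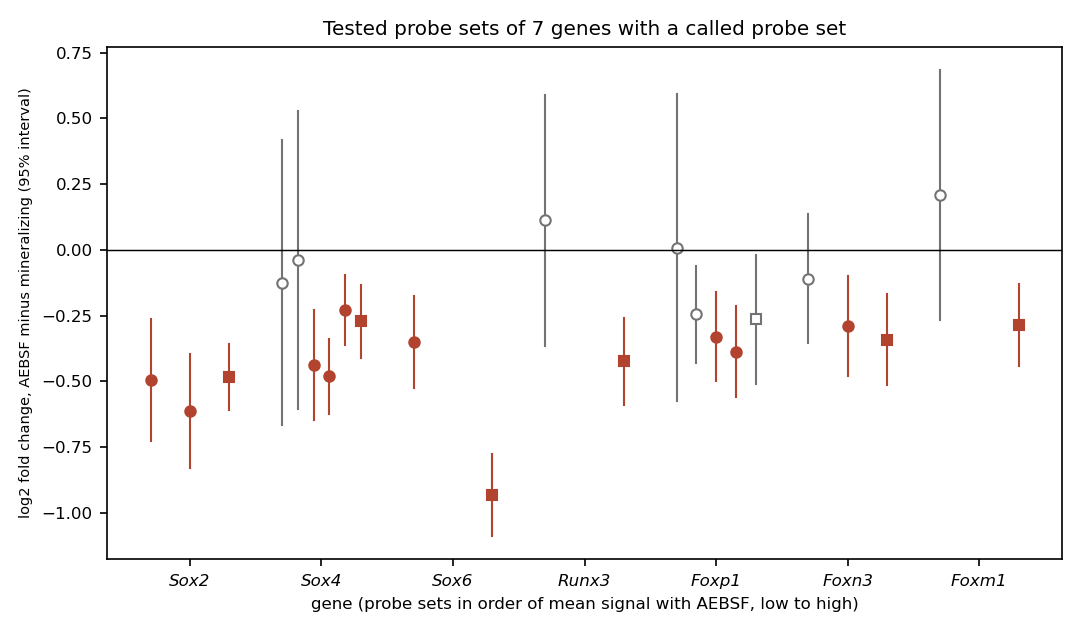
Log2 fold change (AEBSF minus mineralizing, vertical axis, with 95% intervals from limma) of each tested probe set of 7 genes that had several tested probe sets and at least 1 called; squares represent the gene, filled red marks passed an adjusted p of 0.05. The 3 Sox2 and 2 Sox6 probe sets are all filled, while Sox4, Runx3, Foxp1, Foxn3 and Foxm1 hold filled and open marks.

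T-box and Twist genes gave 0 called members of 4 tested in limma, 1 of them (Tbx3) at an unadjusted p under 0.05, where 16.3% of all tested genes were called; so few members cannot be set apart from that share. Tbx3, a limb patterning factor, had 102, 208 and 109.5 with AEBSF, against 221, 166 and 256 (log2 fold change -0.67, SE 0.26, limma adjusted p = 0.11). AEBSF culture 2 lay apart from the other AEBSF cultures, and without it Tbx3 passed (limma adjusted p = 0.0136), as it did with the hybridization scaling (0.0214). For a second Tbx3 probe set the log2 fold change was 0.00. Tbx18 and Tbx2 overlapped between groups (-0.33 and -0.21 on the log2 scale, limma adjusted p = 0.432 and 0.607). Twist1 had 691, 582 and 510 with AEBSF, against 616, 614 and 649.5 (log2 fold change -0.09, 95% interval -0.32 to 0.14). Twist2, Tbx4, Tbx5 and Tbx19 lay below the filter.

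A dim probe set did not mean that its gene was dim. Of 30 member genes with several probe sets, 13 had both tested and untested ones, and Sox2, with means over both groups of 3.28 to 2210 among its 4 probe sets, shows the range. The 44 genes below the filter are therefore not shown to be silent, and no order of abundance can be read between genes.

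The calls differed in how they held under the 17 alternatives. Sox6, Sox18, Sox2, Meis1 and Hoxa3l1 passed under all 17, Runx3 under 15, Foxn3 under 14, Sox4 under 13 and Foxm1 under 10. Sox18, Meis1 and Hoxa3l1 have a single probe set each, so the alternative that averages probe sets left their signals unchanged. Runx3 and Foxm1 lost their calls under that alternative, so the tallies are not like for like. None of the 9 turned positive under these alternatives.

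**Figure D4:**
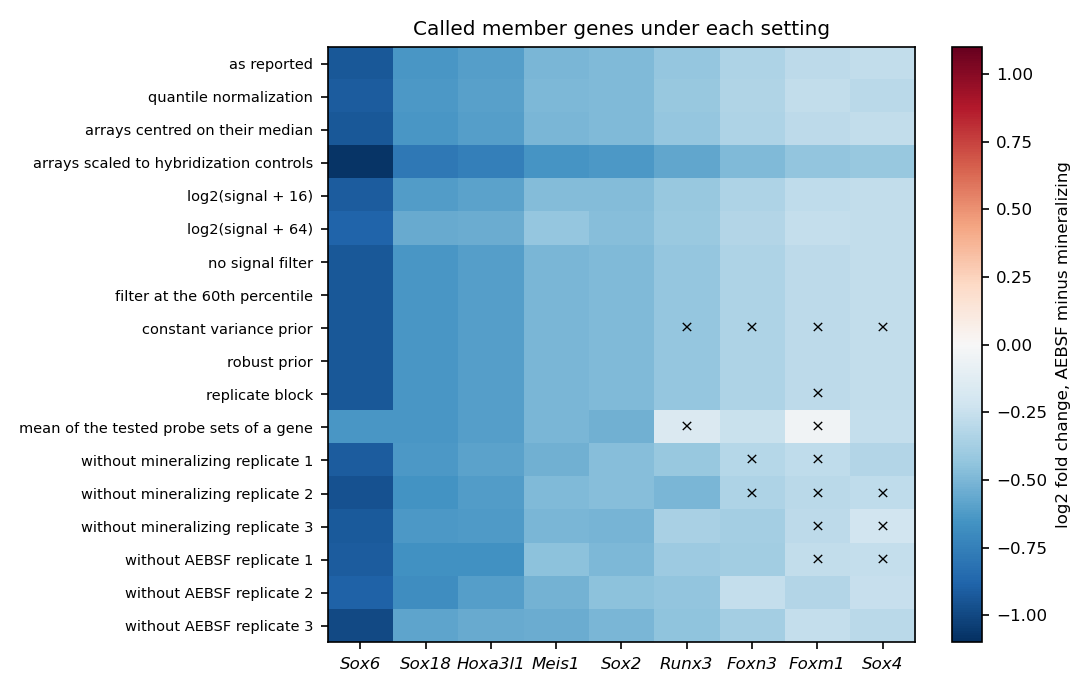
Log2 fold change (AEBSF minus mineralizing, colour) of the 9 called genes under the reported setting and 17 alternatives (rows); a cross marks an adjusted p of 0.05 or more in limma. Sox6, Sox18, Hoxa3l1, Meis1 and Sox2 carry no cross, and Foxm1 carries 7.

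The proteins these factors work with were examined as a list. Of 26 tested partners and cofactors, such as Cbfb, Ldb1, the E proteins and Smads, 0 passed in either direction in limma (2 lower and 0 higher at an unadjusted p under 0.05; median log2 fold change -0.01), where 16.3% of all tested genes passed. Smad3, which carries TGF-beta signals and binds Runx and forkhead factors, came nearest, with 682, 576 and 593 with AEBSF, against 752, 779.9 and 703 (log2 fold change -0.27, SE 0.09, limma adjusted p = 0.0591). Dach1, a cofactor of sine oculis proteins, had 70.6, 63.8 and 61.0 with AEBSF, against 113, 84.9 and 84.2, without overlap (-0.52 on the log2 scale, limma adjusted p = 0.163). Of 25 tested osteoblast factors from outside these families, 1 was lower and 0 higher (3 and 2 at an unadjusted limma p under 0.05), where 9.22% of all tested genes were lower and 7.09% higher. That was the zinc finger factor Klf4, with 3247, 3172 and 2887 with AEBSF, against 3647, 3750.3 and 3862 (log2 fold change -0.28, SE 0.06, limma adjusted p = 0.0111). Runx2 and Sp7 were not analysed here.

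Genes listed as targets of the factors were counted as well. Binding and activity of the factors were not measured, so whether changes in these genes follow from the factors was not tested. Of 17 tested FoxM1 targets, 4 were lower and 1 was higher (6 and 1 at an unadjusted limma p under 0.05; median log2 fold change -0.09), where 9.22% of all tested genes were lower and 7.09% higher. The lower ones were Cenpe and Cenpf, kinetochore proteins, Ccnb1, cyclin B1, and Top2a, a topoisomerase, and the higher one was Ccna2, cyclin A2. Ccnb1 had 2777, 3071 and 3081 with AEBSF, against 3462, 3570.5 and 3677 (log2 fold change -0.26, SE 0.06, limma adjusted p = 0.0135), whereas Ccna2 had 4544, 4938 and 4969.8, against 3939, 4294 and 4167 (0.22, SE 0.06, limma adjusted p = 0.0269). Both pairs of groups were without overlap. Of 20 tested FoxO targets, 4 were lower and 2 higher (6 and 2 at an unadjusted limma p under 0.05; median log2 fold change -0.10), beside the same 9.22% and 7.09%. Ccng2, an atypical cyclin that restrains the cell cycle, had 1780, 1527 and 1537 with AEBSF, against 2117, 2466 and 2278 (log2 fold change -0.50, SE 0.08, limma adjusted p = 0.00183). Cdkn1b, Bcl2l11 and Cited2 were also lower (-0.24, -0.27 and -0.26), while the mitochondrial superoxide dismutase Sod2 and Gabarapl1 of autophagy were higher (0.26 and 0.19; limma adjusted p = 0.0184 and 0.0493).

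Of 16 measured cartilage targets of Sox9, 8 lay below the filter, and of the 8 tested 2 were lower and 0 higher (2 and 1 at an unadjusted limma p under 0.05), where 9.22% of all tested genes were lower and 7.09% higher. Hapln1, which links aggrecan to hyaluronan, had 267, 206 and 225 with AEBSF, against 344, 299 and 331 (log2 fold change -0.49, SE 0.13, limma adjusted p = 0.0309). Col11a1 had 1941, 1754 and 1745 with AEBSF, against 3641, 3491 and 3777 (-1.005 on the log2 scale, limma adjusted p = 6.55e-06). Of 12 tested bone targets of RUNX and DLX factors, 7 were lower and 0 higher, at an adjusted and at an unadjusted limma p under 0.05 alike, with a median log2 fold change of -0.39, where 9.22% of all tested genes were lower and 7.09% higher. Tnfsf11, which encodes RANKL, the osteoclast-inducing cytokine, had 140, 135 and 131 with AEBSF, against 214, 227 and 196 (log2 fold change -0.65, SE 0.15, limma adjusted p = 0.0145). Col1a2, a chain of type I collagen, had 1724, 1485 and 1391 with AEBSF, against 3386, 3176.5 and 3438 (-1.12 on the log2 scale, limma adjusted p = 1.27e-05). Also lower were Col1a1, Phex, Sost, Phospho1 and Enpp1, while Ibsp, Alpl and Spp1 did not pass (limma adjusted p = 0.571, 0.643 and 0.297). Col11a1 and Phex were listed with published work on this culture model in mind, so their direction is not independent evidence. All of the target lists were chosen with earlier results of these data known, so their counts are not independent evidence either.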

How the data were processed

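RNA of 6 cultures was labelled with biotin and hybridized to 1 rat expression array each. The deposited values are intensities, MAS5 signals made by the authors in GCOS per the submitters' processing notes; software versions and the scaling target are unstated there. After trimming 2% at each end, array means were 500.15 to 500.16. At most 2 of 31099 probe sets had equal values in any of 15 pairs of arrays. Groups and replicate numbers came from the sample titles.

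From the deposited signals, log2 values were tested as they stand with limma 3.58.1 under R 4.3.3 (variance prior following the mean signal), leaving out 57 controls and the dimmest 40% of probe sets, with Benjamini-Hochberg adjustment over 18625 probe sets. The fit was also run on simulated data, the outcome of which is not given here. Noise there was drawn independently for each value, and the changes put in were larger than the smallest called ones. That run therefore does not cover effects shared by the probe sets of an array. Genes were named from the platform annotation, in which 20826 probe sets had 1 symbol; looking these up by Entrez identifier in RefSeq (GRCr8) changed no symbol. Of the 107 members, 69 matched a RefSeq promoter entry. Named were the called members, the 3 largest changes of each family, 32 members fixed by name (26 measured) and up to 4 genes of each list. Some others were added after their values were seen, among them Foxp1's other probe sets, Cbfb, Pbx2, Pbx3 and the genes named as below the filter. The members and lists were chosen with earlier results of these data known. Alternatives were other normalizations, added constants of 16 or 64, other filters and priors, the replicate number as a block, probe set means and leaving out each array. With 3 arrays a group, their number limits the precision.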

Additional observations from a re-analysis of the deposited data

How the results depend on the processing

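The count of 9 lower genes was 5 with a constant variance prior and 15 after scaling to hybridization controls. It was 6 to 10 when each array was left out in turn. The count of 18 lower probe sets was 8 with the constant prior and 10 to 18 with an array left out. Calls over all probe sets in either direction, 2495 as reported, were 885 with the constant prior and 1203 to 2257 with an array left out. The share of all genes called lower at each setting is not given here, so the member counts have no matching background. The causes of these shifts were not tested. Higher genes and probe sets, 0 as reported, each numbered 1 after quantile normalization and with the filter at the 60th percentile (Msx1 both times), and 0 to 1 with an array left out (Hoxa10, Pitx1 or Msx1). Higher genes also numbered 1 when probe sets were averaged per gene (Msx1), and higher probe sets 1 with no signal filter. The last was a dim Lhx5 probe set with 18.3, 27.3 and 24.4 with AEBSF, against 3.37, 2.82 and 5.58 in mineralizing cultures (limma adjusted p = 0.0451). Of the other named genes, 23 did not pass as reported; 8 of these passed under at least 1 alternative and 6 changed sign under at least 1.

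The titles number the cultures of both groups, but same-numbered arrays did not deviate together (correlations of 0.0109, -0.119 and -0.0359). With the replicate block, 9 genes and 16 probe sets among the members were lower and 0 of either higher, and 1802 probe sets were called over the table. A single dim probe set sets what can be seen for many members. The largest standard error among tested members was 0.32 on the log2 scale, for Foxc2, which averaged 107.7 with AEBSF and 107.0 in mineralizing cultures.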
